A study of Drosophila melanogaster with 2 samples.

Results

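The genes of Drosophila melanogaster that encode insulator proteins and housekeeping promoter factors were examined for peaks of the transcription factor Cnc. They were Dref, BEAF-32, Chro, Cp190, CTCF, su(Hw), M1BP, pzg and mod(mdg4), 9 of the 13945 protein-coding genes on the 6 nuclear chromosomes, matched by symbol in the Ensembl annotation of dm6. They were chosen from these same data, by their Cnc peaks, so the presence and height of those peaks are given as a description with no test. A peak was counted for a gene when its summit, the peak's highest point, lay in the gene body or within 5 kb of it. Chromatin came from whole larvae of the third instar, in the wandering phase and of mixed sex. They were from a stable transgenic line in which the C-terminal end of Cnc carries eGFP. It was sheared by sonication and immunoprecipitated in 2 biological replicates of 1 group. The labels' description names an antibody against GFP, whereas their antibody field names cnc, so whether untagged Cnc was also precipitated cannot be told from the labels. Every sample thus carried the tagged protein, no untagged or control sample was analysed here, and tissues of the larva cannot be told apart.

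Insulator proteins bind DNA at the borders of chromatin domains and near promoters, and they recruit shared cofactors that join distant sites. Housekeeping promoters, which are active in most cells, are marked in flies by sequence elements such as the DRE, bound by Dref, and Motif 1, bound by M1BP. BEAF-32, Chro, Cp190 and pzg gather at the same promoters and at the interbands of polytene chromosomes. Cnc is a basic leucine zipper protein related to mammalian Nrf2, and it binds DNA together with the small Maf protein to drive genes of the oxidative stress response.

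The authors deposited a list of 30000 peaks called on both replicates pooled, a list of the same length for each replicate, and a list of 6153 reproducible peaks, which were the 6153 highest of the pooled list. A peak's height is the authors' signal value, made against a control on a scale not given in the sources used here. It is comparable only within its own list, so each replicate value is given with its rank there, where rank 1 is the highest. Reproducible peaks had pooled signal values from 205.8 to 7349. Over the 6003 of them that overlapped a peak in both replicates, the ratio of the replicate 1 to the replicate 2 value had a median of 1.14 and lay between 0.534 and 2.25 from the 5th to the 95th percentile. The depth behind each value is unknown, as the reads were not analysed.

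All 9 genes had a reproducible summit in the gene or within 5 kb, beside 56.5% of all protein-coding genes. All 9 also had one within 1000 bp of a transcription start site (TSS), called a promoter peak below, beside 31.9% of all protein-coding genes. The genes were chosen with these peaks in view, and nothing is read from the difference. The highest promoter peak of each gene ranged in pooled signal from 235 at mod(mdg4) to 4039 at Chro. Their median was 426, beside 446 over the 4449 protein-coding genes with a promoter peak, whose quartiles were 295 and 753. The group was therefore not uniform. Chro and Cp190 stood above the upper quartile, BEAF-32 and M1BP lay between it and the median, and mod(mdg4) was below the lower quartile.

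**Figure D1:**
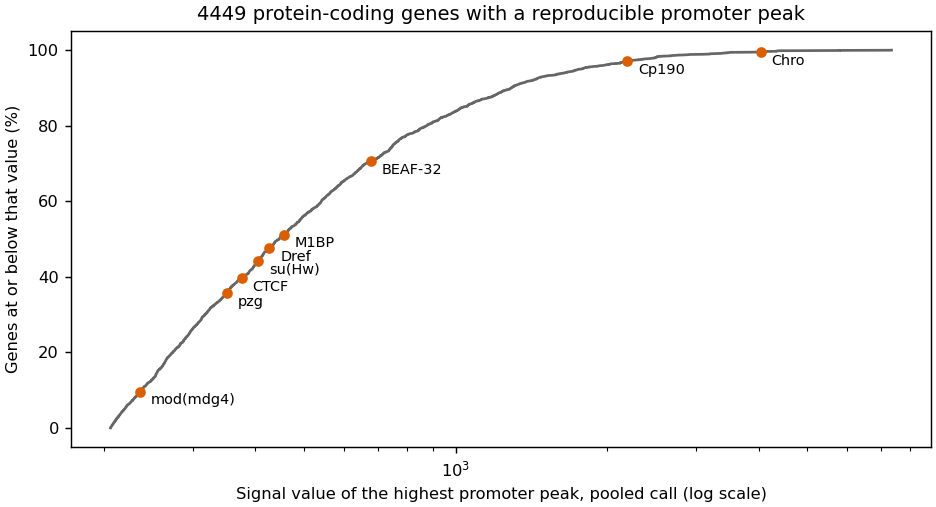
Cumulative share of the 4449 protein-coding genes (vertical axis, percent) at or below a given signal value of their highest promoter peak in the pooled call (horizontal axis, log scale), with the 9 genes as points. Chro at 4039 and Cp190 at 2190 lie near the top of the curve, the 6 genes from pzg at 350 to BEAF-32 at 679 lie in its middle, with CTCF at 375, su(Hw) at 405, Dref at 426 and M1BP at 455 between them, and mod(mdg4) at 235 lies near its foot.

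Single motif matches inside reproducible peaks are shown first so that their letters can be read beside the values. They were picked as matches and are not a trait of the 24 windows, whose motif counts are given further on. Coordinates are on dm6, the plus strand is printed 5′ to 3′, and the bases are from the RefSeq genome. The first 4 lines hold each DRE (TATCGATA, capitals) found inside a reproducible peak of the 9 genes. The second CTCF line lies between the start sites of the neighbours pst and Sec63, nearer to that of Sec63. The next 3 lines hold CGATA, the core bound by BEAF-32, in capitals. The last lines hold a su(Hw) core (TGCATANTT, capitals) and the core letters of the antioxidant element that Cnc and Maf bind (TGACNNNGC, capitals), called Cnc-Maf here. At mod(mdg4) the su(Hw) core is on the minus strand, so the line shows its reverse complement.
Cp190 DRE, chr3R:15275228-15275255: gctcggcagcTATCGATAgccatgcgat
CTCF DRE, chr3L:7356717-7356744: taccgccagcTATCGATAgttcgattgg
CTCF DRE near pst and Sec63, chr3L:7360510-7360537: gcctcccgccTATCGATAgccgtgcaat
mod(mdg4) DRE, chr3R:21377438-21377465: agtgacaataTATCGATAgcttaaaata
Dref CGATA in its 5′ UTR, chr2L:9967057-9967084: cacgccgtcaatCGATAaggcaataaaa
Dref CGATA upstream of its TSS, chr2L:9967230-9967257: tgcatcaccaatCGATAgctggggaaat
Chro CGATA, chr3L:22878880-22878907: tgtattgcctgtCGATAgctttaaacta
M1BP su(Hw) core, chr3R:8731825-8731852: ttaacggattTGCATATTTattatactc
mod(mdg4) su(Hw) core, chr3R:21365418-21365445: aattatagcaAAATATGCAtattggtat
pzg Cnc-Maf, chr3L:21285741-21285768: ctgttaatttTGACATTGCatgatagga

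The 101 bases centred on the summit are shown for M1BP and Cp190 and for the strong summit upstream of mod(mdg4), because these windows are poor in G and C, which are in capitals. All 3 are intergenic and are printed from the plus strand.
M1BP, chr3R:8731860-8731960: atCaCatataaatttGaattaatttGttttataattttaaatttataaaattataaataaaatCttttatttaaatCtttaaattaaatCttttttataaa
Cp190, chr3R:15275338-15275438: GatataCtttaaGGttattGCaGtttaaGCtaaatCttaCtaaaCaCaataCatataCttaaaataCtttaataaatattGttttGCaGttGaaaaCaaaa
upstream of mod(mdg4), chr3R:21378688-21378788: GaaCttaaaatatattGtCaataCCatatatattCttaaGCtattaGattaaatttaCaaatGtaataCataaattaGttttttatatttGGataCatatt

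Dref and M1BP, the DNA-binding factors of housekeeping promoters, both had promoter peaks of middling height. Dref (FBgn0015664, chr2L:9964147-9967229, minus strand) encodes the DNA replication-related element factor. Its promoter peak had a signal value of 426 in the pooled call (rank 2371), 231 in replicate 1 (rank 2378) and 194 in replicate 2 (rank 2492). The 3 ranks were close. The pooled summit lay in the 5′ UTR, 139 bp downstream of the TSS and 223 bp upstream of the TSS of RpL13, which encodes a ribosomal protein of the large subunit and is transcribed away from Dref. The same replicate peaks also overlapped a pooled-list peak of 196 that was not reproducible, with its summit 62 bp upstream of the Dref TSS. The replicate 2 summit was 142 bp from the reproducible summit and 59 bp from that one, so replicate 2 does not place it in the 5′ UTR. The other reproducible summit at Dref had a signal of 223, with 122 in replicate 1 (rank 5106) and 67.5 in replicate 2 (rank 10839). It lay past the gene's 3′ end in the 5′ UTR of CG5850.

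M1BP (FBgn0037621, chr3R:8729790-8731698, minus strand) encodes the zinc finger protein that binds Motif 1. Its only reproducible summit lay between M1BP and CG8202, 212 bp upstream of the one TSS and 181 bp upstream of the other. The signal value was 455 in the pooled call (rank 2153), 314 in replicate 1 (rank 1538) and 171 in replicate 2 (rank 2989). The replicate 2 summit was 134 bp away from the pooled one. It was 66 bp away from another pooled-list summit, of 203, which was not reproducible. The window printed above had 7 G or C bases of 101, or 6.93%, and none of the 6153 reproducible summit windows had fewer.

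Chro had the highest promoter peak of the group. The gene (FBgn0044324, chr3L:22873702-22878984, minus strand, 3 TSSs) encodes the chromodomain protein Chromator of interbands and the mitotic spindle. The signal value was 4039 in the pooled call (rank 19), 2290 in replicate 1 (rank 20) and 1799 in replicate 2 (rank 16). It was among the 20 highest peaks in each of the 3 lists, and 24 of the 4449 genes with a promoter peak, Chro included, had one at least as high. The summit fell in the 5′ UTR, 106 bp upstream of the nearest Chro TSS and 215 bp upstream of the TSS of Ssl1, which encodes a TFIIH subunit and runs the other way. A weaker summit with a signal of 273 lay 177 bp downstream of another Chro TSS, with 97.4 in replicate 1 (rank 6609) and 171 in replicate 2 (rank 2978). A further summit of 482, with 188 in replicate 1 and 313 in replicate 2, lay 1668 bp beyond the gene, 18 bp downstream of the TSS of Arf1, a small GTPase gene, and 166 bp upstream of that of CG11109. The start of the noncoding gene asRNA:CR45969 was 221 bp from it.

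pzg (FBgn0259785, chr3L:21286099-21290310, plus strand) encodes Putzig, also called Z4, an interband protein found together with Chro and with a complex that holds Dref. Its only reproducible summit had a signal value of 350 in the pooled call (rank 3116), 160 in replicate 1 (rank 3738) and 138 in replicate 2 (rank 3974). Unlike the Chro peak, it was below the median of genes with a promoter peak in the pooled call. It lay 227 bp upstream of pzg and in the 5′ UTR of CG12974, 90 bp downstream of that gene's TSS. The replicate 2 summit was 145 bp away from the pooled one.

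Cp190 had the second highest promoter peak. The gene (FBgn0000283, chr3R:15270432-15275241, minus strand) encodes the BTB and zinc finger cofactor that insulator DNA-binding proteins share. Its only reproducible summit had a signal value of 2190 in the pooled call (rank 99), 1095 in replicate 1 (rank 151) and 1108 in replicate 2 (rank 70). The replicate values had a ratio of 0.989. The summit was intergenic, 147 bp upstream of Cp190 and 134 bp upstream of CG4338, which runs the other way. It also lay 829 bp downstream of the start of the noncoding gene asRNA:CR46081. Of the 4449 genes with a promoter peak, 97.0% had a lower one.

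**Figure D2:**
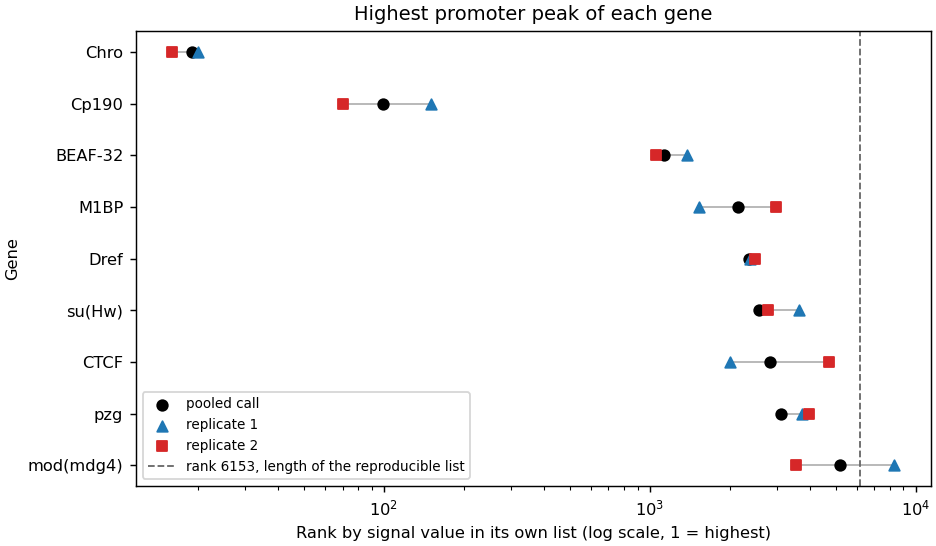
Rank of the highest promoter peak of each of the 9 genes (horizontal axis, log scale, 1 is the highest) in the pooled list and in the list of each replicate, with the dashed line at rank 6153, the length of the reproducible list. Chro at ranks 16 to 20 and Cp190 at ranks 70 to 151 stand apart from the other genes in all 3 lists, and the replicate 1 point of mod(mdg4) at rank 8323 lies beyond the line.

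BEAF-32 had 5 reproducible summits, more than any of the 9 genes except mod(mdg4). The gene (FBgn0015602, chr2R:14770469-14772630, plus strand, 3 TSSs) encodes the boundary element factor that binds clusters of CGATA. Its highest peak had a signal value of 679 in the pooled call (rank 1130), 336 in replicate 1 (rank 1384) and 326 in replicate 2 (rank 1053). The summit lay in the 5′ UTR, 33 bp upstream of an internal TSS. A second summit of 594 lay 27 bp upstream of the first TSS, with 343 in replicate 1 and 243 in replicate 2. A further one, of 274, was in a coding exon 168 bp downstream of the internal TSS, and overlapped the same replicate peaks as the highest one, so the replicates do not show it as a separate peak. These 3 summits also lay within 174 bp of a start of the noncoding gene asRNA:CR42254 on the other strand. The remaining summits, of 215 and 209, were 165 bp upstream and 473 bp downstream of the TSS of Spred, an inhibitor of Ras signalling. They had 111 and 94.3 in replicate 1 (ranks 5749 and 6844) and 93.3 and 122 in replicate 2 (ranks 6844 and 4778).

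CTCF and su(Hw), which encode zinc finger insulator proteins, had promoter peaks below the median. CTCF (FBgn0035769, chr3L:7353578-7356713, minus strand) had a signal value of 375 in the pooled call (rank 2844), 261 in replicate 1 (rank 1996) and 123 in replicate 2 (rank 4727). The ratio of replicate 1 to replicate 2, 2.13, was the highest among the 9 promoter peaks, inside the 5th to 95th percentile range of all reproducible peaks. The summit lay in the 5′ UTR, 8 bp downstream of the TSS, the nearest of any of the 9. The start of asRNA:CR45822 was 704 bp away. The annotated starts of insertions of the Quasimodo transposable element were 177 and 474 bp away, with the summit downstream of both. How far the insertions extend was not examined. A second summit of 358, with 176 in replicate 1 and 184 in replicate 2, was in an intron of qm, 633 bp upstream of lncRNA:CR45833. Another of 207 had 102 in replicate 1 (rank 6300) and 105 in replicate 2 (rank 5828). It lay between pst and Sec63, 90 and 208 bp upstream of their TSSs. Sec63 takes part in protein import into the endoplasmic reticulum.

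su(Hw) (FBgn0003567, chr3R:14304455-14308589, minus strand) encodes the protein that binds the insulator of the gypsy retrotransposon. Its promoter peak had a signal value of 405 in the pooled call (rank 2573), 164 in replicate 1 (rank 3632) and 180 in replicate 2 (rank 2780). The summit was intergenic, 285 bp upstream of su(Hw) and 215 bp upstream of Polr2I, which encodes a subunit of RNA polymerase II. A second summit of 252, with 125 in replicate 1 (rank 4986) and 58.7 in replicate 2 (rank 13318), lay in an intron of red. It was 4439 bp from su(Hw), the summit nearest to the 5 kb limit on its inner side. The nearest summits outside the limit were at 5317 and 5517 bp from CTCF, with signals of 366 and 446, at 5377 bp from Chro, with 382, and at 5833 bp from Cp190, with 241.

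**Figure D3:**
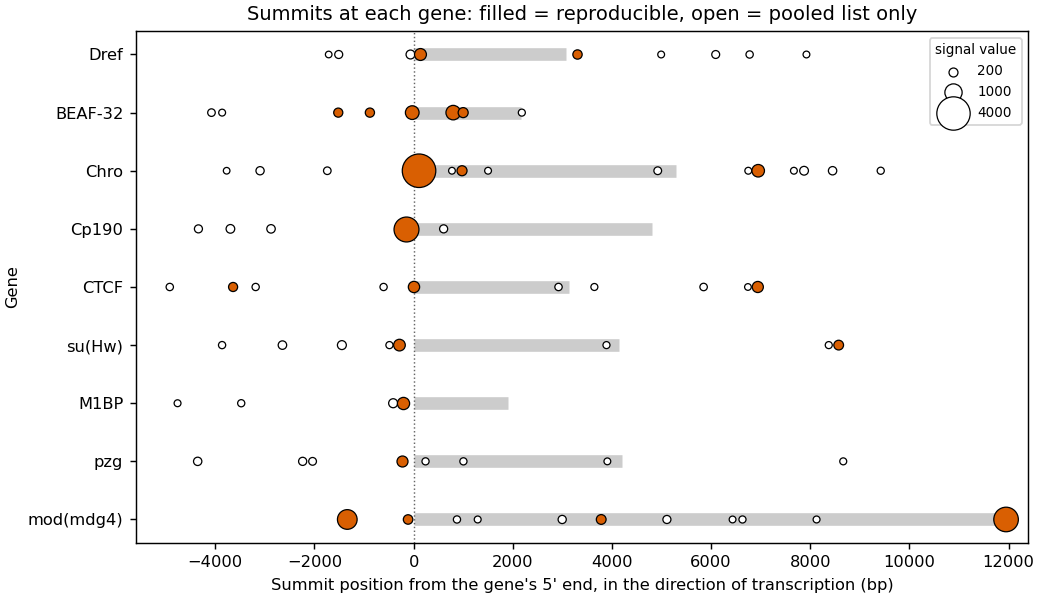
Summits at each gene by distance from its 5′ end in the direction of transcription (horizontal axis, bp), with filled circles for reproducible summits, open circles for summits of the pooled list only, area rising with the pooled signal value and grey bars for gene bodies, all drawn up to 12 kb, which leaves out the far end of mod(mdg4). The largest circles, for Chro at 4039 and Cp190 at 2190, sit at the start of the gene, whereas at mod(mdg4) the circles of 1329 and 2124 lie away from it.

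mod(mdg4) differed from the other genes in where its strong peaks lay. The gene (FBgn0002781, chr3R:21350846-21377401, minus strand, 26556 bp) encodes BTB proteins, one of which is part of the gypsy insulator. Its messages are joined by trans-splicing from separate transcripts, and the annotation lists the parts that supply the variable 3′ ends as 23 pre-mod(mdg4) genes inside mod(mdg4), 14 on its strand and 9 on the other. The peak at its own TSS was the lowest of the group, with a signal value of 235 in the pooled call (rank 5210), 78.9 in replicate 1 (rank 8323) and 150 in replicate 2 (rank 3552). Its replicate ratio of 0.525 was just below the 5th percentile of 0.534 over all reproducible peaks. Among the 6153 highest peaks of replicate 1 alone, mod(mdg4) had no promoter peak.

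Inside the gene, the summit at chr3R:21365231-21365608 had a signal value of 2124 in the pooled call (rank 109), 1239 in replicate 1 (rank 119) and 917 in replicate 2 (rank 114). The 3 ranks lay within 10 places of each other. It lay 11949 bp downstream of the mod(mdg4) TSS, 36 bp downstream of a start of pre-mod(mdg4)-E and in its 5′ UTR. It was also 162 bp upstream of the TSS of pre-mod(mdg4)-C and pre-mod(mdg4)-AB on the mod(mdg4) strand. On the other strand it was 157 bp upstream of a TSS of pre-mod(mdg4)-AD, -AE, -U, -V, -W, -X and -Y. Weaker intronic summits stood at the other groups of start sites. One of 264 had 84.4 in replicate 1 (rank 7692) and 146 in replicate 2 (rank 3702). It was 245 bp upstream of the 8 genes pre-mod(mdg4)-B, -G, -H, -I, -J, -K, -L and -P, and 163 bp upstream of pre-mod(mdg4)-T and -Z on the other strand. One of 254, with 160 and 119 in replicates 1 and 2, was 42 bp upstream of pre-mod(mdg4)-AA, -N and -O. With 1 annotated start taken per gene, 22 of the 23 had a reproducible summit within 1000 bp. They were at 5 of the 6 distinct start sites so taken, which share those 3 summits. For pre-mod(mdg4)-E and -U the start taken was not the one furthest 5′. The exception, pre-mod(mdg4)-U, had the start taken 2677 bp from one, but its start named above was 157 bp from the summit of 2124.

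**Figure D4:**
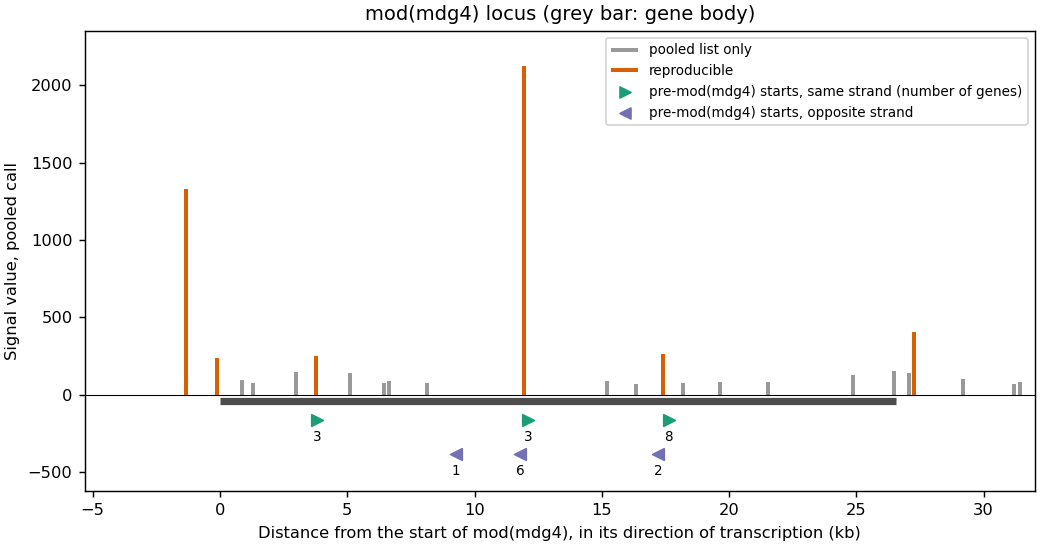
Pooled signal value (vertical axis) of each summit at mod(mdg4) by distance from the gene's start in its direction of transcription (horizontal axis, kb). Reproducible summits are in orange and other pooled-list summits in grey. Triangles mark the start sites taken for the pre-mod(mdg4) genes by strand, each with its number of genes. For pre-mod(mdg4)-E and -U the start taken was not the outermost. The bar of 2124 stands between divergent start sites, the bar of 1329 stands upstream of the gene, and the bar at the gene's own start reaches 235.

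Outside mod(mdg4), a summit with a signal value of 1329 in the pooled call (rank 309), 873 in replicate 1 (rank 253) and 494 in replicate 2 (rank 484) lay 1337 bp upstream. It was 239 bp upstream of the TSS of tin, the divergently transcribed gene of the cardiac homeodomain protein Tinman. At the 3′ end, a summit of 404, with 197 in replicate 1 and 205 in replicate 2, was 544 bp upstream of aus. The 2 summits above 1000 at mod(mdg4) were thus both nearer to other annotated start sites than to its own. The Cp190 summit was also nearer to a neighbour, at 134 bp from CG4338 and 147 bp from Cp190.

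Across the 9 genes, 24 of 90 pooled-list summits were reproducible, or 26.7%, beside 20.5% over the whole pooled list. Of these 24, 13 lay within 1000 bp of a TSS of the 9 genes and 11 did not. By annotation, 9 were in a 5′ UTR, 9 were intergenic, 5 were in an intron and 1 was in a coding exon. The genes had a median length of 4135 bp, beside 2166 bp over all protein-coding genes, and the part of gene length in these counts was not tested. The highest promoter peak of 6 genes, Dref, Chro, Cp190, su(Hw), M1BP and pzg, was also within 1000 bp of the TSS of another protein-coding gene. This was so for 64.3% of the 4449 genes with a promoter peak. The neighbour was transcribed in the opposite direction in all 6 cases, and a peak there cannot be given to one gene of the pair. When each summit was given only to the protein-coding gene with the nearest TSS, 5 of the 9 genes kept a promoter peak, and Cp190, su(Hw), M1BP and pzg lost theirs to the neighbour.

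Motifs were searched as exact letters on both strands in the 101 bases centred on each summit, with every CGATA inside a DRE counted under both. A DRE was present in 1 of the 24 windows, that of the CTCF promoter, beside 2.70% of all 6153 reproducible windows. CGATA was in 8 of 24, beside 18.4%. The site nearest to a summit was in the BEAF-32 gene itself, where the coding exon summit had 3 copies, beginning -29, 0 and 27 bases from it. The next nearest began -6 bases from the summit in the Spred intron. A su(Hw) core was in 1 of 24, at the summit inside mod(mdg4), beside 1.32%. The GAGA motif GAGAG, bound by the factor of the gene Trl, was in 2, at Dref and Chro, beside 11.0%. An E-box (CAGCTG) was in 1, at CTCF, beside 4.21%. The Motif 1 core (GGTCACACT), beside 0.796%, the CTCF core (AGNTGGCGC), beside 0.455%, and the Cnc-Maf letters, beside 2.73%, were in none of the 24. The printed Cnc-Maf match at pzg began -121 bases from its summit, outside the window. So did the printed su(Hw) core at M1BP, at -75, and the upstream CGATA at Dref, at 152. A match of letters is no evidence that a factor was bound, and a window without one says nothing of the factor.

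The promoters of the 9 genes, taken as 250 bases before and 50 after the 5′ end, were searched in the same way. A DRE was in 4 of the 9 promoters, those of BEAF-32, Cp190, CTCF and mod(mdg4), beside 9.36% of all 13945 promoters and 15.7% of those of genes with a promoter peak. CGATA was in 6, those of Dref, BEAF-32, Cp190, CTCF, pzg and mod(mdg4), beside 47.4% and 58.7%. The printed Cp190 DRE began 150 bases from the Cp190 summit, and the element overlaps the Cp190 TSS, and the mod(mdg4) DRE began 64 bases from its summit. At CTCF the distance was 22 bases. The Dref promoter held a CGATA 17 bases upstream of its TSS but no DRE, the M1BP promoter held a su(Hw) core, and the su(Hw) promoter held a Motif 1 core 5 bases downstream of its TSS. These last were beside 2.60% for the su(Hw) core and 6.05% for the Motif 1 core over all promoters. Among promoters of genes with a promoter peak the shares were 2.54% and 9.89%. An E-box was in the CTCF promoter only, beside 17.7% of all promoters. The CTCF core, GAGA and the Cnc-Maf letters were in none of the 9, beside 1.29%, 29.7% and 8.63%.

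The G and C content of the 24 windows ranged from 6.93% at M1BP to 53.5% at the summit of 254 in mod(mdg4), with a median of 37.6%. Over all reproducible windows the median was 33.7% and the mean 34.4%, beside a mean of 43.2% in flanking windows. The promoter summits were spread over that range. Those of M1BP, mod(mdg4) at 19.8%, Cp190 at 21.8% and pzg at 23.8% were low, and those of Dref at 39.6%, BEAF-32 at 41.6% and CTCF at 42.6% were high. The summits at tin and between pst and Sec63 both had 16.8%, and 44 of the 6153 windows had less. The peaks of Chro at 38.6% and Cp190 at 21.8% differed widely in composition although both were among the highest.

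**Figure D5:**
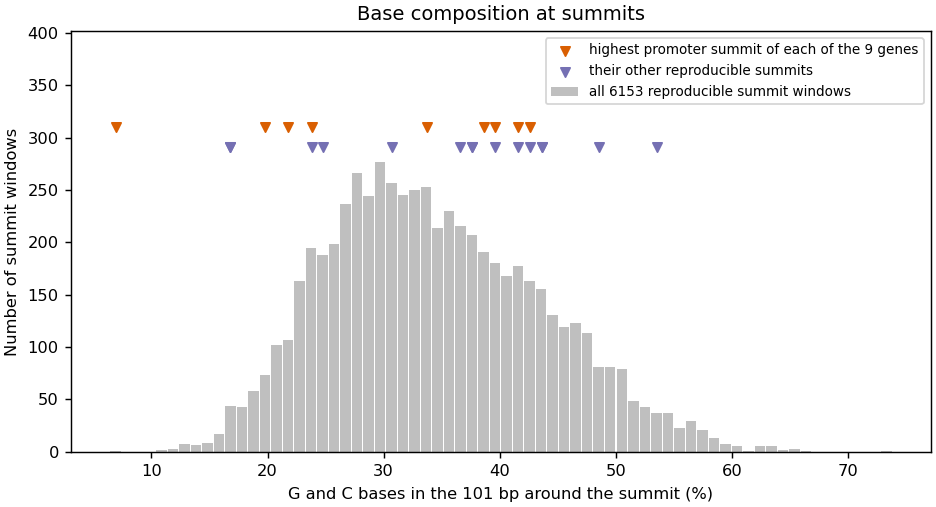
Number of reproducible summit windows (vertical axis) by their share of G and C bases (horizontal axis, percent) in grey, with triangles for the highest promoter summit of each of the 9 genes and for their other reproducible summits. The triangles run from M1BP at 6.93%, at the left end of the distribution, to 53.5%, and Cp190 at 21.8% lies well to the left of Chro at 38.6%.

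Other genes of chromatin architecture were set beside the 9 by role. Of 42 such genes, 16 had a promoter peak, or 38.1%, beside the 31.9% of all protein-coding genes. Among insulator DNA-binding factors 2 of 11 had one. They were pita, whose peak had a signal value of 780 in the pooled call, 393 in replicate 1 and 365 in replicate 2, and Trl, which encodes GAGA factor, with 456, 307 and 167. Among cofactors and proteins that tune insulators 6 of 9 had one, the highest at JIL-1, the histone H3 kinase of interbands, with 746, 427 and 298, and at e(y)2, which encodes a subunit of the SAGA coactivator, with 736, 401 and 285. The Trl peak also lies near the TSS of CG42507, and the e(y)2 peak near that of CG11695. Among housekeeping promoter coregulators 6 of 15 had one, the highest at row with 1649, 924 and 762 and at nsl1, of the NSL histone acetyltransferase complex, with 771, 440 and 378. Among cohesin and condensin II genes 2 of 7 had one. Cap-H2, a condensin II subunit gene whose peak also lies near the TSS of the Mediator gene MED7, had 1799, 1095 and 745. SMC1, a cohesin subunit gene whose peak lies near the TSS of Hsp68 too, had 355, 296 and 50.7. Its ratio of replicate 1 to replicate 2, 5.84, was the highest among these 8 genes and outside the 5th to 95th percentile range of all reproducible peaks. None of the 42 reached the signal of Cp190 or Chro. Of all 13945 protein-coding genes, 132 had a promoter peak at least as high as that of Cp190 and 24 as that of Chro, these genes included. Cp190 and Chro were chosen with their peaks in view, and nothing is read from the difference.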

How the data were processed

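Chromatin immunoprecipitation with sequencing was done in 2 replicates of 1 group. Per the deposited file lists, peaks were called against a control on each replicate and on both pooled, and reproducible peaks were kept by irreproducible discovery rate. Neither aligner, caller nor threshold was given in the sources used here. The authors deposited a signal value and a −log10 q value per peak, and also dm3 lists, which were not used here. Ranks are by signal value, and −log10 q values were not used for ranking. The 9 genes and the lists of other genes and motifs were chosen with earlier results of these data known. Peaks were matched to Ensembl release 115 genes by summit, and a replicate value is that of the highest overlapping peak, by at least 1 bp. Sequence came from the RefSeq genome of dm6, whose chromosome lengths were checked. All 9 genes, each of their reproducible summits within 5 kb, the genes with a TSS within 1000 bp of one, and the 2 other genes of each role with the highest promoter peak are named. No test was run. Python 3.11.15 with pandas 2.3.3 and numpy 2.4.6 was used, and the scripts were tested on simulated data. Alternatives changed the distances, the peak set, the motif window and the replicate.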

Additional observations from a re-analysis of the deposited data

How the results depend on the processing

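With 2 replicates of 1 group, unknown depth and a control that is not analysed here, no difference in height between genes was tested. No paired analysis was possible because there is 1 group and no result comes from a test. Counting gene bodies only, 5 of the 9 genes had a reproducible summit and 9 summits remained of 24. Reproducible peaks at or above the list's median signal value left 13 summits, and the whole pooled list gave 90. Giving each summit to the nearest coding TSS left 5 genes with a promoter peak. A DRE was found in 2 windows at 100 bp either side, in 0 at 25 bp, and CGATA in 8. Leaving out a replicate gave 0 to 1 windows with a DRE, 22 to 26 summits and 8 to 9 genes with a promoter peak, the lost gene being mod(mdg4). The whole pooled list gave 27 of the 42 other genes a promoter peak, beside 56.1% of all protein-coding genes. Among peaks at or above that median, pzg and mod(mdg4) had no promoter peak. By single replicate the rank of Cp190 became 151, that of CTCF 4727 and that of mod(mdg4) 8323. In all these, the cause was not tested.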

Other observations

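The replicate summits of the highest promoter peaks were not equally close to the pooled summit. In replicate 1 the shifts of the 9 genes ran from -54 bp at pzg to 32 bp at su(Hw), with 0 bp at BEAF-32 and Cp190. In replicate 2 they ran from -145 bp at pzg to 142 bp at Dref, with 134 bp at M1BP. Over all reproducible peaks the median distance between the replicate summits was 38 bp. At the genes whose DRE is placed from the summit in the report, the replicate 2 shifts were -48 bp at Cp190, 32 bp at CTCF and 14 bp at mod(mdg4), and those distances hold for the pooled summit.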
